A study of Rattus norvegicus with 22 samples.

Results

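The serotonin receptors of the nucleus accumbens (NAc) were followed in rats that drank ethanol (EtOH) and in rats that also received it by gavage. The 10 receptor genes Htr1a, Htr1b, Htr1d, Htr2a, Htr2c, Htr3a, Htr4, Htr5a, Htr6 and Htr7 were taken by their exact symbol from the 17310 genes listed in the count data. All 10 were listed. In each experiment 9 of them had at least 1 read, and Htr7 was listed at 0 in every library.

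RNA was sequenced from the NAc of 22 adult male outbred Wistar rats. In experiment 1, 5 rats could choose between water and 6 v/v % EtOH for 8 weeks, and 5 rats drank water alone. In experiment 2, all 12 rats, controls included, drank 6% EtOH for 4 weeks before and 2 weeks after a gavage period of 3 weeks. During that period 6 of them received EtOH by gavage (2.5 g/kg at 30 v/v %, 2 times a day) and 6 received water by gavage. The second comparison therefore had no water-drinking control, and each experiment was analysed on its own. The paper gives the water gavage rats EtOH access over the same period, so drinking in the gavage weeks is not excluded. Every library came from dissected tissue that held core and shell together, in which fewer cells of a type and less RNA per cell cannot be told apart.

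Serotonin reaches the NAc along fibres from the midbrain raphe nuclei, where its neurons have their cell bodies. Nearly all of its receptors are coupled to G proteins. The 5-HT1 and 5-HT5 receptors act through Gi/o and lower cyclic AMP, the 5-HT2 receptors act through Gq and phospholipase C, and the 5-HT4, 5-HT6 and 5-HT7 receptors act through Gs and raise cyclic AMP. The 5-HT3 receptor is the exception, a cation channel that serotonin opens directly. A receptor made by the incoming fibres has its mRNA in the distant cell body, so the counts here describe receptor mRNA of cells within the dissected tissue.

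The genes of each library took 2962291 to 5247386 reads in experiment 1 and 6713617 to 8765472 in experiment 2. Experiment 2 was sequenced deeper but its libraries varied more, with a common biological coefficient of variation of 31.3% against 11.1%. In this value, differences between animals, dissections and library preparations cannot be told apart. The striatal markers Drd1, Drd2 and Ppp1r1b (the dopamine D1 and D2 receptors and DARPP-32) were present in every library of both experiments. Among the 12 rats of experiment 2, 3 libraries stood apart. Water gavage rat 1, EtOH gavage rat 1 and EtOH gavage rat 2 had 54.5%, 58.0% and 56.4% of reads outside annotated genes, and the next highest library had 52.8%. The share is taken of reads on and outside genes together, without other reads. The first principal component of that experiment held 73.6% of the variance and followed this share with r = 0.97 across the 12 libraries. The share itself was 52.9% ± 3.42 (SD, n = 6) in the EtOH gavage group, against 50.1% ± 3.09 (SD, n = 6) in the water gavage group (two-sided exact permutation test, p = 0.175).

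Levels are given as normalized counts, which are reads brought to a common library size within an experiment. They are comparable between rats of 1 experiment but not between genes, since no transcript lengths were used, so the receptors are not ranked against each other. Differences are log2 fold changes of EtOH over control from edgeR's quasi-likelihood test, with the false discovery rate (FDR) of Benjamini and Hochberg over all genes tested. Genes were ranked by base mean, the mean count over the rats of an experiment after scaling for depth, and the upper 50% were tested, 8655 in each experiment. Of the receptors, 6 passed this filter in experiment 1 and 5 in experiment 2. The remaining receptors with reads were tested in the same way among all genes with at least 10 reads in total, 12668 in experiment 1 and 12972 in experiment 2, and those values are marked as coming from the wide filter.

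In experiment 1, none of the 9 receptors with reads passed the FDR threshold of 0.05. The background was the same, with 0% of the 8655 genes called. The fitted log2 fold change was above 0 for 3 receptors and below 0 for 6, with a median of -0.05 and a range from -0.60 to 0.44. The largest of these differences was that of Htr6, 0.66 times the level of water-drinking rats. At an unadjusted P under 0.05, 1 receptor (Htr6) was found, beside 5.58% of all genes under the base mean filter and 5.97% under the wide filter. In none of the 9 did the normalized counts of the EtOH rats lie wholly apart from those of the water rats, against 0.786% of all genes that did so under that filter and 0.9% under the wide filter.

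**Figure D1:**
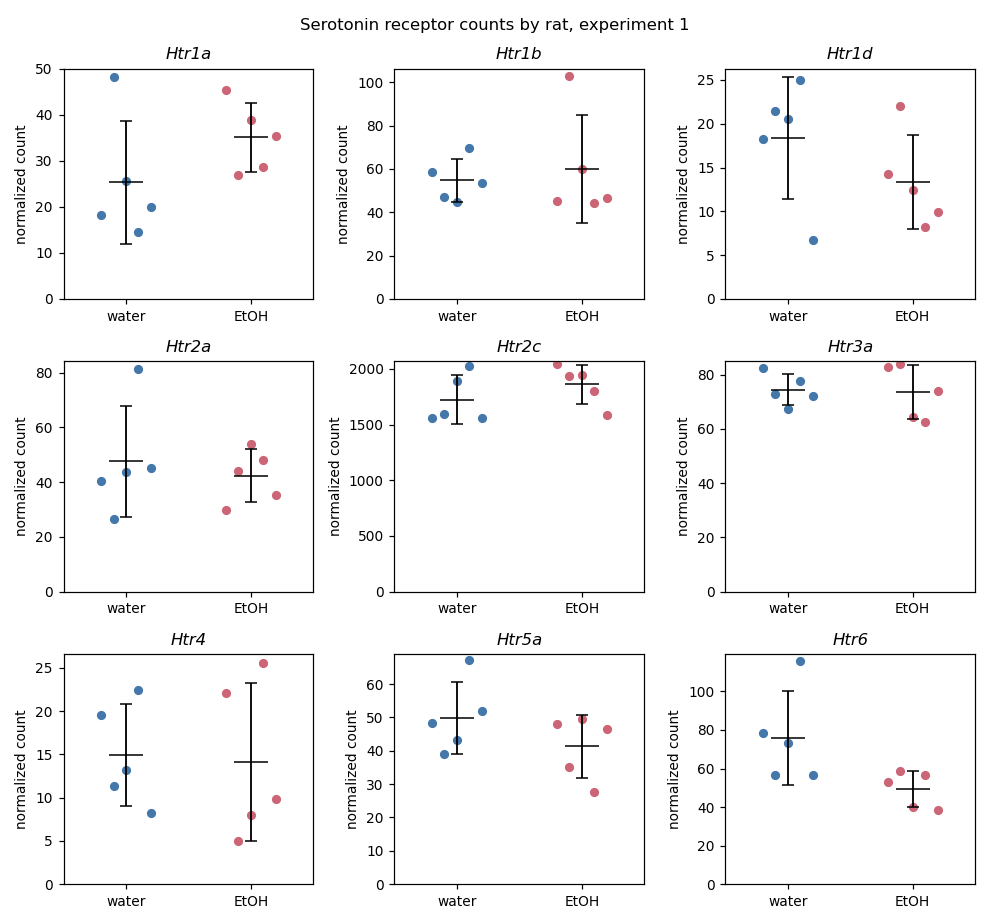
Normalized counts (y axis, linear from 0) of 9 serotonin receptors in experiment 1, with 1 point for each of the 5 water and 5 EtOH rats, and a dash and bar for the mean ± SD. The groups overlap in every panel, and Htr6 has mean counts of 76.0 in water rats and 49.4 in EtOH rats.

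Among the Gi/o-coupled receptors, Htr1a encodes 5-HT1A, the somatodendritic receptor that quiets many forebrain neurons and the serotonin neurons themselves. It was low in experiment 1, with normalized counts of 18.3, 48.2, 25.6, 14.5 and 20.04 in the 5 water rats and 45.4, 27.0, 38.9, 28.7 and 35.4 in the 5 EtOH rats. The EtOH rats lay above 4 of the 5 water rats, and water rat 2 lay above all EtOH rats. Their log2 fold change was 0.44 (SE 0.28, unadjusted P = 0.137, FDR = 0.885, wide filter, edgeR's quasi-likelihood test). Without water rat 2 it was 0.80 (unadjusted P = 0.00524, FDR = 0.741).

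Htr1b encodes 5-HT1B, an inhibitory receptor of axon terminals that striatal projection neurons carry to their targets. Normalized counts were 58.8, 47.2, 44.6, 69.7 and 53.4 in water rats and 45.4, 102.9, 60.1, 44.1 and 46.4 in EtOH rats. EtOH rat 2 stood alone at the top, and 3 of the other 4 EtOH rats lay in the lower part of the water range or just under it. The log2 fold change of 0.16 (SE 0.23, FDR = 0.975) turned to -0.13 without that rat.

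Htr1d, a close relative of Htr1b, was counted at 9 to 28 reads in water rats and 8 to 22 in EtOH rats. Mean normalized counts were 18.4 ± 6.98 (SD, n = 5) and 13.4 ± 5.35 (SD, n = 5). The log2 fold change of -0.42 had an interval from -1.19 to 0.34 (95%, FDR = 0.923, wide filter). Htr5a, the receptor of the 5-HT5 class tested here, had means of 49.9 ± 10.8 (SD, n = 5) and 41.3 ± 9.54 (SD, n = 5) and a log2 fold change of -0.26 (SE 0.19, FDR = 0.924).

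Among the Gq-coupled receptors, Htr2c had the most reads behind it, 1190 to 2586 per library in experiment 1, and was the most precisely measured. Htr2c encodes 5-HT2C, a receptor of striatal and other neurons whose activation restrains dopamine release and food and drug intake. Normalized counts were 1554, 1591, 1889, 2022 and 1558 in water rats and 2042, 1931, 1944, 1805 and 1582 in EtOH rats. Of the EtOH rats, 4 lay above 3 of the water rats, but water rat 4 was nearly level with the highest EtOH rat. On the log2 scale the fold change was 0.12 (SE 0.09, unadjusted P = 0.203, FDR = 0.919). Its interval reached from 0.95-fold to 1.23-fold of the water level.

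Htr2a, the receptor through which classical hallucinogens act, had means of 47.6 ± 20.4 (SD, n = 5) in water and 42.3 ± 9.69 (SD, n = 5) in EtOH rats. Water rat 4 was the highest of the 10, at 81.5, and the others ranged from 26.7 to 53.9. This receptor had a log2 fold change of -0.12 (SE 0.25, FDR = 0.983).

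Htr3a, the subunit that every 5-HT3 channel needs, was the steadiest of the receptors with low counts. Its means were 74.4 ± 5.75 (SD, n = 5) in water and 73.6 ± 10.003 (SD, n = 5) in EtOH rats, with a log2 fold change of -0.01 (interval -0.28 to 0.27, FDR = 0.996).

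Among the Gs-coupled receptors, Htr6 gave the lowest P-value of all receptors in experiment 1. It encodes 5-HT6, a receptor that striatal projection neurons carry on their cilia. Normalized counts were 78.4, 56.4, 73.1, 115.7 and 56.4 in water rats and 53.2, 58.9, 39.8, 56.4 and 38.7 in EtOH rats. The groups overlapped through EtOH rat 2, whose 58.9 lay above water rats 2 and 5. EtOH rat 4 was level with those water rats at the precision given. Above every EtOH rat lay 3 water rats, and the remaining 3 EtOH rats lay below every water rat. Htr6 had a log2 fold change of -0.60 (SE 0.21, interval -1.04 to -0.15, unadjusted P = 0.0118), which was rank 117 of 8655 genes and gave an FDR of 0.861. Without water rat 4 it was -0.41 (unadjusted P = 0.0387), and with the striatal marker score as a covariate -0.38 (unadjusted P = 0.0393). Over all settings tried it ranged from -0.69 to -0.38, with unadjusted P from 0.00474 to 0.0393 and an FDR of at least 0.289.

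Htr4, which encodes a receptor enriched on projection neurons of the basal ganglia, was at 5 to 25 reads per library in experiment 1. Its log2 fold change was -0.05 with an interval from -0.95 to 0.84 (FDR = 0.994, wide filter). Htr7 was listed at 0 reads in all 22 libraries, as were 2853 of the listed genes. A count of 0 allows up to 3 reads over the 10 libraries of experiment 1, or 0.0778 CPM (reads scaled to a common library total), and 0.0326 CPM over the 12 libraries of experiment 2. These limits cover counting error only and hold if the annotation behind the counts lets reads of the gene be counted, which was not tested, so the 0 is a listing and not a statement on expression.

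In experiment 2 none of the 9 receptors passed the FDR threshold either, and again 0% of the 8655 genes did. The fitted log2 fold change of EtOH gavage over water gavage was above 0 for 4 receptors and below 0 for 5, with a median of -0.16 and a range from -0.48 to 0.53. Htr2c had the largest difference, 1.44 times the level of the water gavage rats. It was also the 1 receptor at an unadjusted P under 0.05, beside 1.33% of all genes under the base mean filter and 1.95% under the wide filter. The groups overlapped for all 9 receptors, and 0.0116% of all genes under that filter did not overlap (0.0308% under the wide filter).

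**Figure D2:**
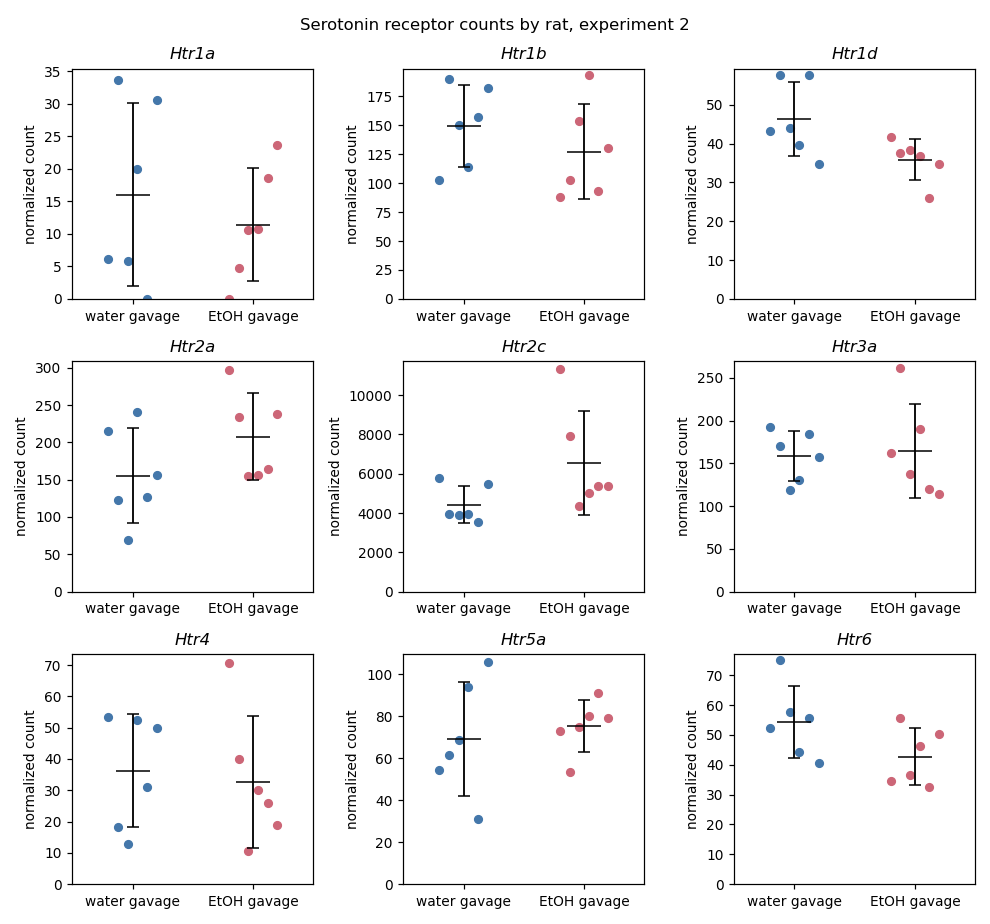
Normalized counts (y axis, linear from 0) of 9 serotonin receptors in experiment 2, with 1 point for each of the 6 water gavage and 6 EtOH gavage rats, and a dash and bar for the mean ± SD. The groups overlap in every panel, and in the Htr2c panel EtOH gavage rats 1 and 2, at 11340.1 and 7931, lie above all other rats.

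Htr2c was counted at 3301 to 9793 reads per library. The water gavage rats had normalized counts of 5774, 3957, 3882, 3971, 3527 and 5468. The EtOH gavage rats had 11340.1, 7931, 4357, 5000.3, 5386 and 5360.4. EtOH gavage rats 1 and 2 were above all others, while the remaining 4 EtOH gavage rats lay inside the range of the water gavage rats and above 4 of these 6.

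The log2 fold change of Htr2c was 0.53 (SE 0.22, interval 0.06 to 0.99, unadjusted P = 0.0298), rank 32 of 8655 genes, with an FDR of 0.675. The 3 highest Htr2c levels were those of the 3 libraries with the most reads outside genes. Without these 3 libraries the log2 fold change was 0.25 (unadjusted P = 0.0909), and with that share as a covariate it was 0.22 (unadjusted P = 0.198). Without EtOH gavage rat 1 alone it was 0.32 (unadjusted P = 0.0738). Over all settings tried it ranged from 0.22 to 0.62, with unadjusted P from 0.00668 to 0.198 and an FDR of at least 0.394. Across the 12 rats, log2 CPM of Htr2c and the share of reads outside genes had Pearson's r = 0.80 (permutation p = 0.00193, adjusted 0.0508) and Spearman's rho = 0.64 (permutation p = 0.0271, adjusted 0.236). Within groups r was 0.45 in water gavage and 0.92 in EtOH gavage rats. Without EtOH gavage rats 1 and 2 it was 0.39, so the relation rested on those rats. The same 3 libraries had the lowest scores of the 12 on the endothelial markers (4.64 to 4.83 in mean log2 CPM, against 5.30 to 5.92). They were also the lowest on the microglial markers (4.19 to 4.46, against 4.63 to 5.66). On the cortical markers EtOH gavage rat 1, water gavage rat 1 and EtOH gavage rat 2 scored 0.25, 1.04 and 2.43. Only water gavage rat 5 was lower, at -0.0044, and the other rats scored 2.80 to 5.09. Htr2c and the score on these markers had r = -0.44 (permutation p = 0.147, adjusted 0.361). Within groups r was -0.09 in water gavage and -0.89 in EtOH gavage rats. On the striatal and choroid plexus markers the 3 libraries were not the 3 lowest. What part these differences between libraries had in the Htr2c value was not tested.

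The choroid plexus, the tissue in the ventricles that makes cerebrospinal fluid, is rich in Htr2c mRNA, so its markers were read beside this gene. Its defining transcription factor gene Otx2 was listed at 0 in all 22 libraries, the 1 of its 12 markers to be so. As for Htr7, this is a listing and not a statement on expression. Ttr, the most abundant transcript of the choroid plexus, reached at most 32.8 normalized counts in experiment 1 and 8.64 in experiment 2. The 12 choroid plexus markers together summed to 67.3 to 120 in water gavage and 48.4 to 522 in EtOH gavage rats. The rat with 522, EtOH gavage rat 5, had an Htr2c count of 5386, in the middle of its group.

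Htr2a, the other Gq-coupled receptor tested, had normalized counts of 69.5 to 240.2 (median 142) in water gavage and 155 to 298 (median 199) in EtOH gavage rats. All EtOH gavage rats lay above 3 of the water gavage rats, and EtOH gavage rat 1 was the highest of the 12, as for Htr2c. The fitted log2 fold change was 0.38 (SE 0.27, unadjusted P = 0.178, FDR = 0.675). With the share of reads outside genes as a covariate it was 0.16 (SE 0.25), without water gavage rat 3 it was 0.24, and without the 3 libraries that stood apart it was 0.30. Across the 12 rats Htr2a and that share had r = 0.64 (permutation p = 0.0261, adjusted 0.141), rho = 0.52 (permutation p = 0.0875, adjusted 0.296) and r = 0.42 without EtOH gavage rats 1 and 2.

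Of the Gi/o-coupled receptors, Htr1a was close to the limit of counting in experiment 2, with 0 to 36 reads per library. Normalized counts were 6.2, 33.7, 5.9, 19.9, 0 and 30.5 in water gavage rats and 0, 4.8, 10.6, 10.8, 18.6 and 23.7 in EtOH gavage rats. Each group held a rat without a single read and at least 1 rat above 20, and the range of the EtOH gavage rats lay wholly inside that of the water gavage rats. The log2 fold change of -0.48 had an SE of 0.81 (FDR = 0.817, wide filter).

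Htr1a varied between rats of experiment 2 together with markers of cortical projection neurons. Slc17a7, the vesicular glutamate transporter of cortical neurons, had 23, 3034, 1639, 3648, 1 and 1419 reads in the 6 water gavage rats and 13, 165, 2414, 375, 2040 and 2242 in the 6 EtOH gavage rats. The 2 rats with no Htr1a read, water gavage rat 5 and EtOH gavage rat 1, were those with the fewest Slc17a7 reads, while water gavage rat 3 had little Htr1a beside 1639 Slc17a7 reads. Across the 12 rats, Htr1a and the mean log2 CPM of 7 cortical markers had Pearson's r = 0.87 (permutation p = 0.00046, adjusted 0.0248 over 54 relations) and Spearman's rho = 0.78 (permutation p = 0.00407, adjusted 0.0733), of which the first passed the correction and the second did not. Within groups r was 0.84 in water gavage and 0.93 in EtOH gavage rats, and without those 2 rats it was 0.65. A relation to this score was not particular to Htr1a. Htr5a had r = 0.66 (permutation p = 0.0159, adjusted 0.123) and Htr3a had r = -0.59 (permutation p = 0.0432, adjusted 0.179). Neither of these passed the correction.

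In experiment 1 Slc17a7 was at 232 to 3042 reads, and Htr1a and the cortical score had r = 0.06 over 10 rats (permutation p = 0.86). The cortical score averaged 3.22 in EtOH gavage and 3.23 in water gavage rats (two-sided exact permutation test, p = 1). Its part in the Htr1a level was not tested beyond its use as a covariate, which gave a log2 fold change of -0.38 (SE 0.57). Htr1a also had r = -0.71 with the share of reads outside genes (permutation p = 0.00948, adjusted 0.0936) and rho = -0.68 (permutation p = 0.019, adjusted 0.236), and r was -0.55 without EtOH gavage rats 1 and 2. With that share as a covariate the log2 fold change turned to 0.41 (SE 0.66), and without the 3 libraries highest in it the value was -0.20.

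**Figure D3:**
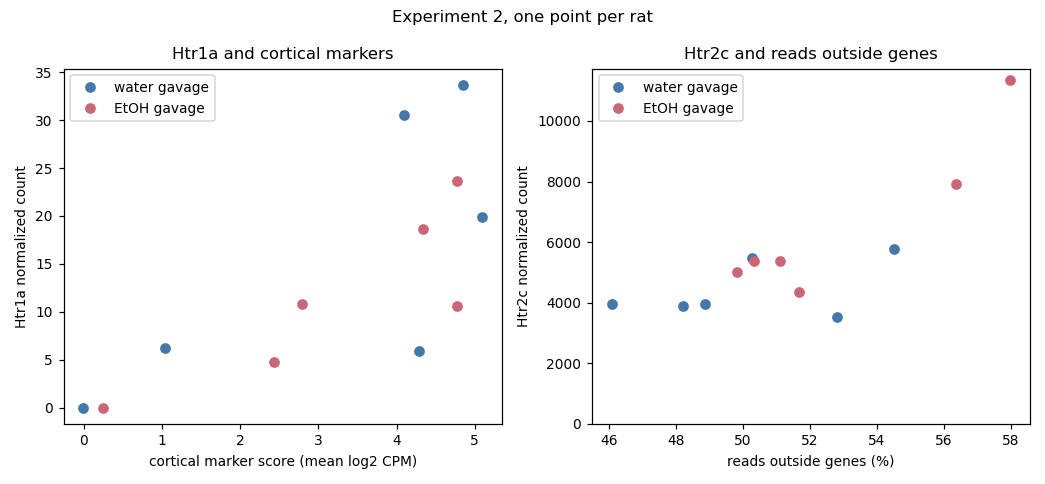
The 12 rats of experiment 2, 1 point each, with normalized counts of Htr1a against the mean log2 CPM of 7 cortical markers (left) and of Htr2c against the percent of reads outside genes (right). Both rats without an Htr1a read have cortical scores under 1, and the 2 rats with the highest Htr2c have the largest share of reads outside genes.

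Htr1b ranged from 103 to 189.6 (median 153) in water gavage and from 88.0 to 193 (median 117) in EtOH gavage rats. EtOH gavage rat 4 was the highest of the 12 and EtOH gavage rats 1 and 5 the lowest, with the others inside the water gavage range. Its log2 fold change was -0.26 (SE 0.24, FDR = 0.675), against 0.16 in experiment 1. Leaving out each rat gave -0.43 to -0.16, the lowest without EtOH gavage rat 4 and the highest without EtOH gavage rat 1. Htr1b had r = -0.65 with the share of reads outside genes (permutation p = 0.0225, adjusted 0.135), rho = -0.59 (permutation p = 0.049, adjusted 0.294) and r = -0.41 without EtOH gavage rats 1 and 2. With that share as a covariate its log2 fold change was -0.04 (SE 0.20).

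Htr1d had normalized counts of 43.2, 57.7, 44.1, 39.7, 57.7 and 34.8 in water gavage and 41.7, 37.6, 38.4, 36.7, 26.0 and 34.6 in EtOH gavage rats. Of the EtOH gavage rats, 5 lay below 5 of the 6 water gavage rats. This gave a log2 fold change of -0.37 (SE 0.22, unadjusted P = 0.121, FDR = 0.73, wide filter), against -0.42 in experiment 1. Htr5a ranged from 31.0 to 106 (median 65.1) in water gavage and from 53.3 to 91.1 (median 77.0) in EtOH gavage rats, with a log2 fold change of 0.09 (SE 0.27, FDR = 0.879). The Htr5a value was 0.28 with the share of reads outside genes as a covariate and -0.025 with the striatal score.

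Htr3a was again level between the groups, with means of 159 ± 29.4 (SD, n = 6) and 164 ± 55.4 (SD, n = 6). Its log2 fold change of 0.02 had an interval from -0.44 to 0.48 (FDR = 0.966). Of the Gs-coupled receptors, Htr4 had 13 to 59 reads in water gavage and 11 to 61 in EtOH gavage rats, with a log2 fold change of -0.16 (interval -1.14 to 0.83, FDR = 0.893, wide filter). The Htr4 value was -0.70 with the share of reads outside genes as a covariate (unadjusted P = 0.0945) and -0.63 without the 3 libraries that stood apart (unadjusted P = 0.197). Leaving out each rat gave -0.54 (without EtOH gavage rat 1) to 0.026 (without EtOH gavage rat 3).

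Htr6 had normalized counts of 52.4, 75.1, 57.8, 44.2, 55.6 and 40.7 in water gavage and 34.7, 55.7, 36.5, 46.4, 32.5 and 50.3 in EtOH gavage rats. The 3 lowest rats were EtOH gavage rats and the 2 highest were water gavage rats, with the other rats intermixed. Htr6 had a log2 fold change of -0.35 (SE 0.23, interval -0.84 to 0.15, unadjusted P = 0.156, FDR = 0.73, wide filter).

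**Figure D4:**
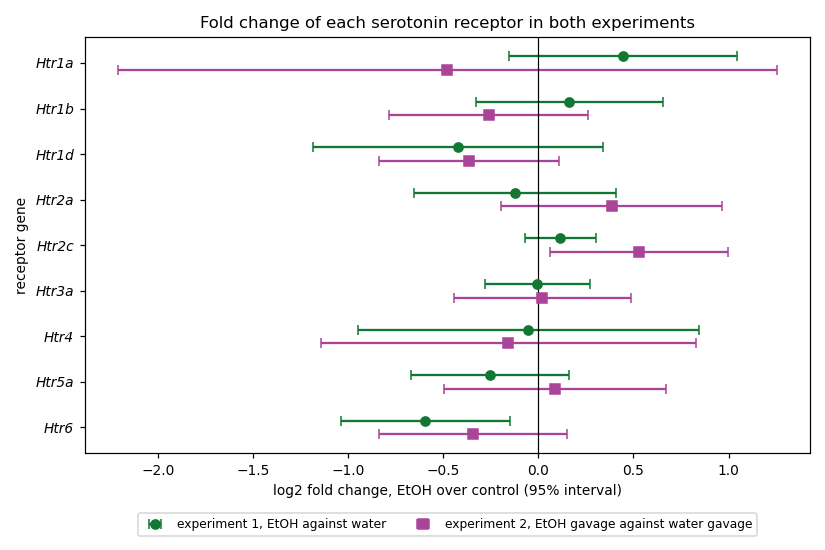
Log2 fold change (x axis) of each receptor for EtOH over control, with its 95% interval as a bar, in experiment 1 (circles) and experiment 2 (squares). Every interval crosses 0 except those of Htr6 in experiment 1 (-1.04 to -0.15) and Htr2c in experiment 2 (0.06 to 0.99), and neither passed the FDR threshold.

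The experiments share no animals, but they differ in library protocol and in what the controls drank. The difference between the EtOH effects was tested on 12510 genes with all 22 libraries in one fit. None of the 9 receptors differed at an FDR under 0.05 or at an unadjusted P under 0.05, and 0% and 2.61% of all genes did. The fitted difference of Htr2c, experiment 2 minus experiment 1, was 0.45 on the log2 scale (interval -0.11 to 1.02, unadjusted P = 0.112, FDR = 0.845). That of Htr6 was 0.27 (interval -0.38 to 0.91) and that of Htr1a was -0.94 (interval -2.75 to 0.88). Sizeable differences either way were within the intervals of Htr6 and Htr1a, while that of Htr2c reached little below 0.

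Htr1d, Htr4 and Htr6 had lower fitted levels in the EtOH group of both experiments, with log2 fold changes of -0.05 and -0.16 for Htr4. In both experiments Htr1d and Htr6 were also higher in rats with more of the striatal projection neuron markers. The marker score is the mean log2 CPM of 11 such markers, which summed to 11263.5 to 22494 normalized counts in the libraries of experiment 1 and to 35381 to 70077 in those of experiment 2. In experiment 1, Htr6 and this score had Pearson's r = 0.80 (permutation p = 0.00282, adjusted 0.0508, n = 10) and Spearman's rho = 0.87 (permutation p = 0.00185, adjusted 0.0733). For Htr1d r was 0.82 (permutation p = 0.00461, adjusted 0.0622) and rho was 0.84 (permutation p = 0.00328, adjusted 0.0733). After centring on the group means both had r = 0.80. None of these passed the correction for 54 relations. Without EtOH rat 3 and water rat 4, r was 0.68 for Htr6 and 0.84 for Htr1d.

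In experiment 2 the coefficients were lower, with r = 0.60 for Htr6 (permutation p = 0.039, adjusted 0.176, n = 12) and 0.71 for Htr1d (permutation p = 0.0104, adjusted 0.0936). Spearman's rho was 0.64 for Htr6 (permutation p = 0.0294, adjusted 0.236) and 0.44 for Htr1d (permutation p = 0.152, adjusted 0.357). Without water gavage rat 5 and EtOH gavage rat 5, r was 0.50 for Htr6 and 0.32 for Htr1d, so the Htr1d relation rested on those rats. A positive r with the score in both experiments was not particular to Htr1d and Htr6. Htr1b had 0.56 in each, and Htr3a had 0.65 in experiment 1 and 0.50 in experiment 2. Neither receptor passed the correction or had lower fitted levels in the EtOH group of both experiments. The remaining receptors had no positive r in both. The score was 8.10 in EtOH against 8.35 in water rats (two-sided exact permutation test, p = 0.27, adjusted 0.575 over 20 marker tests). It was 8.45 against 8.59 in the gavage groups (p = 0.374, adjusted 0.575, two-sided exact permutation test). With the score as a covariate, the log2 fold change of Htr1d was -0.10 in place of -0.42 in experiment 1 (unadjusted P = 0.75) and -0.26 in place of -0.37 in experiment 2. That of Htr6 was -0.38 in place of -0.60 and -0.25 in place of -0.35. This covariate was chosen after the data were seen, and the part of the score in the Htr1d and Htr6 values was not tested beyond it.

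**Figure D5:**
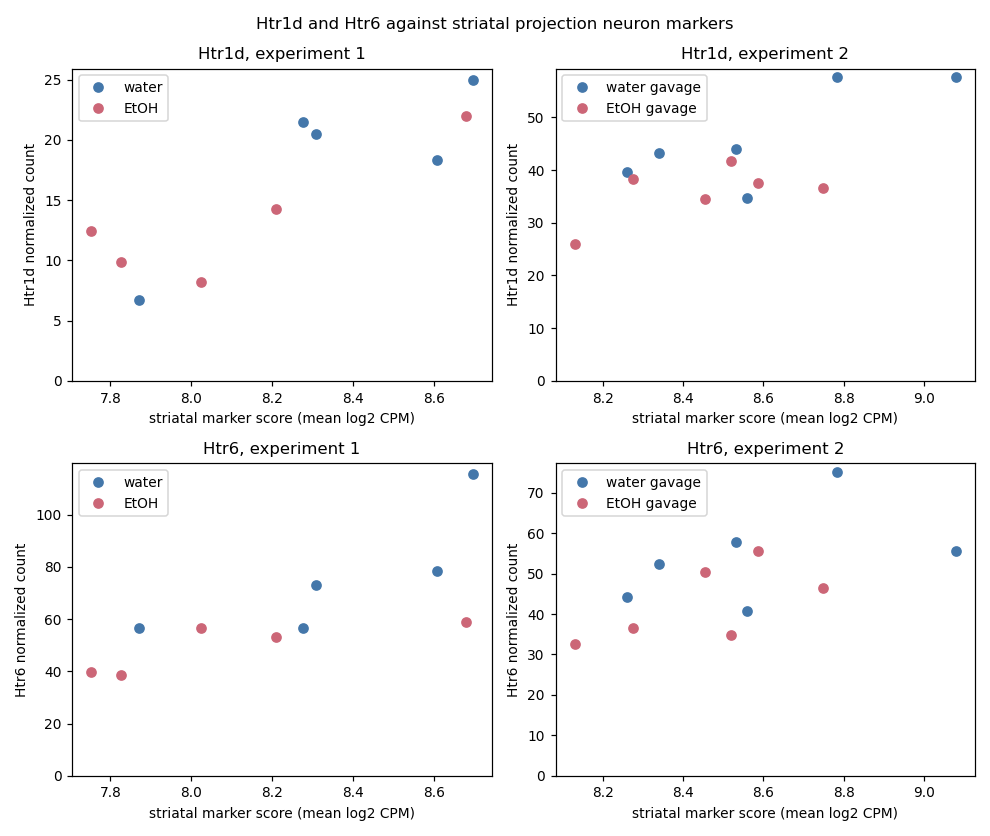
Normalized counts of Htr1d (top) and Htr6 (bottom) against the mean log2 CPM of 11 striatal projection neuron markers in experiment 1 (left, 10 rats) and experiment 2 (right, 12 rats), 1 point per rat. In experiment 1 rats with a higher marker score have more of both transcripts, with r = 0.82 for Htr1d and 0.80 for Htr6 on the log2 CPM scale.

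Of 10 marker lists in each experiment, none differed between the groups after adjustment over the 20 tests. The ependymal markers of experiment 1 had the lowest p, with sums of 36.6 to 273 in water and 175 to 417 in EtOH rats (two-sided exact permutation test, p = 0.0476, adjusted 0.575). In the same experiment, striatal interneuron markers had scores of 4.32 in EtOH against 4.66 in water rats (p = 0.0635, adjusted 0.575, two-sided exact permutation test). Their part in the receptor values was not tested.

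Among themselves the 9 receptors had no common pattern across rats. Of 36 receptor pairs, 19 had group-centred correlations of the same sign in both experiments and 17 of opposite sign. A coefficient above 0.5 in both was found for 2 pairs. Htr1d and Htr6 had 0.52 over the 10 rats of experiment 1 and 0.60 over the 12 of experiment 2, and Htr2a and Htr2c had 0.51 and 0.59. These values are descriptions, since all receptors of a rat share its library.

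The genes most like each receptor were sought among the 8176 genes over the base mean filter in both experiments, by the lower of the 2 group-centred coefficients. Each match is the highest of a search over many genes in few rats, so high values are built in. They are descriptions without a test. Htr1b was most like Zswim5, with r = 0.88 over 10 rats and 0.94 over 12, followed by Smpd3 (0.88 and 0.92) and Actn1 (0.88 and 0.94). Htr2c was most like Uggt1, which folds glycoproteins in the endoplasmic reticulum, with 0.89 and 0.86, then Zfp52 (0.85 and 0.87). Htr5a was most like Dab1, the reelin adaptor, with 0.89 and 0.80, then Tmem200a (0.77 and 0.87) and Cadps (0.76 and 0.79).

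Htr2a was most like Prkca, a protein kinase C gene of its own signalling arm, with 0.78 and 0.80, then Dclk1 (0.83 and 0.77) and Ptprj (0.77 and 0.86). Htr3a had the weakest matches of the 5 receptors, Wdr33 (0.75 and 0.69), LOC680039 (0.89 and 0.68) and Map6d1 (0.79 and 0.67).

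Of the 4 further serotonin receptor genes, Htr1f was the one with appreciable counts, 7 to 35 reads in experiment 1 and 49 to 127 in experiment 2. Its log2 fold change was -0.20 in experiment 1 (SE 0.30, FDR = 0.982, wide filter) and -0.01 in experiment 2 (SE 0.27, FDR = 0.985). Htr3b, the partner subunit of Htr3a, was listed at 0 in every library. Htr2b had at most 2 reads in experiment 1 and at most 5 in experiment 2, and Htr5b at most 8 and 13.

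Few reads fell on the genes that mark serotonin neurons. The serotonin transporter gene Slc6a4 had at most 3 reads in a library of experiment 1 and none in experiment 2. Tph2, which makes serotonin in neurons, had 2 to 18 reads in experiment 1 and 15 to 86 in experiment 2. Of the 12 genes of synthesis, transport and breakdown, 6 were tested in experiment 1 and 5 in experiment 2, and 0 were called at an FDR under 0.05 in either. Tph1, under the base mean filter, had at most 4 reads in a library of experiment 1, and its unadjusted P under the wide filter was 0.0467 (FDR = 0.831, beside 5.97% of all genes at an unadjusted P under 0.05).

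In that group, 1 of the 6 genes of experiment 1 had an unadjusted P under 0.05, beside 5.58% of all genes, and 0 of the 5 of experiment 2, beside 1.33%. The gene of experiment 1 was Maob, the monoamine oxidase B gene, with mean counts of 670 ± 45.0 (SD, n = 5) in water and 745 ± 36.1 (SD, n = 5) in EtOH rats. Its log2 fold change was 0.16 (SE 0.06, FDR = 0.866), and in experiment 2 it was 0.15 (SE 0.18, FDR = 0.69). Slc18a2, the vesicular monoamine transporter gene, had log2 fold changes of 0.44 (SE 0.22, FDR = 0.866) and 0.39 (SE 0.24, FDR = 0.675). Qdpr, which recycles the cofactor of tryptophan hydroxylase, had -0.08 (FDR = 0.983) and -0.31 (FDR = 0.675).

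Downstream of the receptors, 0 genes of the Gi/o, Gq and Gs arms were called at an FDR under 0.05. All 12 Gi/o genes were tested in both experiments, with median log2 fold changes of 0.03 and -0.21, beside medians of -0.0012 and 0.00088 over all genes tested. Rgs9, a striatal brake on Gi/o signalling, had -0.35 in experiment 1 (SE 0.17, FDR = 0.866), Rgs4 had -0.27 (SE 0.15, FDR = 0.878) and the G protein gene Gnai2 had 0.08 (FDR = 0.917). In experiment 2, Rgs14 had -0.55 (SE 0.30, FDR = 0.675), Gnai1 had 0.25 (SE 0.14, FDR = 0.675) and Gnao1 had -0.15 (FDR = 0.675).

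Of the Gq arm 11 genes were tested in experiment 1 and 10 in experiment 2, with medians of 0.01 and 0.08. Gna11, the gene of a Gq-class alpha subunit, had the lowest P of the arm in both. Its means were 249 ± 20.8 (SD, n = 5) in water and 209 ± 13.5 (SD, n = 5) in EtOH rats, which was -0.24 on the log2 scale (SE 0.08, unadjusted P = 0.0099, FDR = 0.823). In experiment 2 it was -0.68 (SE 0.40, unadjusted P = 0.109, FDR = 0.675). Rgs2 had 0.30 (FDR = 0.898) in experiment 1, and Itpr1, the calcium-release channel of this arm, had 0.03 and -0.13.

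Of the Gs arm, 16 genes were tested in each experiment, with medians of -0.06 and -0.19. In experiment 1, 2 of them had an unadjusted P under 0.05, beside 5.58% of all genes. These were the adenylyl cyclase gene Adcy1 (0.48, SE 0.22, FDR = 0.866) and the protein kinase A subunit gene Prkar2b (-0.30, SE 0.14, FDR = 0.866). In experiment 2 there were 0, beside 1.33% of all genes, and the lowest P-values were those of Prkar2a (0.34, SE 0.16, FDR = 0.675) and Pde1b (-0.38, SE 0.20, FDR = 0.675). Ppp1r1b, the striatal target of protein kinase A, had -0.24 (FDR = 0.914) and -0.25 (FDR = 0.675).

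Of 12 genes for proteins that bind, fold, edit or desensitise serotonin receptors, 11 were tested in each experiment and 0 were called. Grk5, a receptor kinase gene, had 0.25 (FDR = 0.866) in experiment 1, and Adarb1, the RNA editing enzyme that acts on the Htr2c transcript, had -0.13 (FDR = 0.898). Dlg4, the synaptic scaffold PSD-95 to which 5-HT2A and 5-HT2C bind, had -0.05 (FDR = 0.97) in experiment 1 and -0.50 (SE 0.32, FDR = 0.675) in experiment 2. Cops5 had 0.19 (FDR = 0.675) in experiment 2.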

How the data were processed

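RNA from the NAc of 22 rats was sequenced as poly-A libraries, without strand information in experiment 1 and with it in experiment 2. The authors aligned the reads to rn6 with TopHat2 2.0.13 and deposited raw gene counts from htseq-count, which were used here unchanged. The lines for reads outside genes and other reads without a gene were left out of library sizes and tests. Reads outside genes made up 48.4% to 51.1% of the reads on and outside genes together in experiment 1 and 46.1% to 58.0% in experiment 2. Ambiguous, low-quality, unaligned and multiply aligned reads did not enter this share. Without strand, reads of overlapping genes cannot be told apart. In RefSeq's annotation of another build (GRCr8), Htr2c, Htr4, Htr5a and Htr7 overlap other genes, in Htr2c small RNA genes, so their counts are uncertain to that extent in experiment 1. Strand information separates only genes on opposite strands. The strands of these overlaps are not given here, so experiment 2 may share the uncertainty.

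Groups came from the sample labels. Counts were scaled by TMM and tested within each experiment by the quasi-likelihood test of edgeR 4.0.16 under R 4.3.3 (glmQLFit and glmQLFTest at default arguments), with Benjamini-Hochberg adjustment over all genes tested. Standard errors follow from F and the fold change, and intervals are at 95%. Log2 CPM used a prior count of 2. Correlations were tested with 100000 permutations, over 54 relations, and marker scores with exact permutation tests over samples. The scripts were tested on simulated data.

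The 10 receptors, the pathway lists and the marker lists were chosen with earlier results of these data known. From each pathway list, in each experiment, the 2 genes with the lowest P and the 1 with the highest mean count were to be named, as well as any called gene. For each receptor over the filter in both experiments, the 3 genes of most similar pattern were to be named. Some genes that these rules pick are not reported here. Genes named beyond this rule (Slc17a7, Otx2, Ttr and further serotonin genes) were chosen after their values were seen.

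Within groups every pair of libraries differed by more than sampling noise (chi-square per degree of freedom at least 2.67). Alternatives were DESeq2 1.42.0, DESeq2 size factors in edgeR, 2 other filters, a joint fit of the 4 groups, a block by replicate number and each rat left out. Chosen after seeing the data were the cortical score, the striatal score or the share of reads outside genes as a covariate, and leaving out the 3 libraries with the most such reads. Depth is the reads on genes given for each experiment, and its intervals cover counting error only where no replicates enter.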

Additional observations from a re-analysis of the deposited data

Results flagged for a closer look

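A rat far from the others of its group was sought for 9 receptors, the library total, the percent of reads outside genes and the cortical and striatal scores, in 52 groups of 5 or 6 rats. It was found in 2, where chance alone gives about 2.6. EtOH rat 2 of experiment 1 had 102.9 normalized counts of Htr1b, while the other 4 EtOH rats had 44.1 to 60.1. EtOH rat 3 of the same experiment had a cortical marker score of 5.40 in mean log2 CPM, while the other 4 had 4.49 to 4.65. The cause of either was not tested. No receptor had effects that differed between the experiments by the test of the difference.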

How the results depend on the processing

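No receptor passed an FDR of 0.05 under any setting tried, in either experiment or in the difference between them. At an unadjusted P under 0.05, leaving out each rat in turn gave 1 to 2 receptors in experiment 1 and 0 to 1 in experiment 2. The second receptor was Htr1a without water rat 2, Htr2c without water rat 4 and Htr1d without water rat 5. In experiment 2, Htr2c was over 0.05 without water gavage rat 2, 3, 4 or 5 or EtOH gavage rat 1 or 2. The count there was also 0 with the share of reads outside genes as a covariate and without the 3 libraries highest in it.

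Leaving out each rat turned the sign of 10 of 86 fold changes in experiment 1, 6 of 108 in experiment 2 and 14 of 198 differences. The log2 fold changes so turned ranged in experiment 1 from -0.13 to 0.26 (Htr1b), -0.063 to 0.046 (Htr3a) and -0.41 to 0.17 (Htr4). In experiment 2 they ranged from -0.16 to 0.11 (Htr3a), -0.069 to 0.24 (Htr5a) and -0.54 to 0.026 (Htr4). For the difference they ranged from -0.061 to 0.36 (Htr1d), -0.10 to 0.15 (Htr3a) and -0.49 to 0.24 (Htr4). Of the other settings, the cortical score as a covariate turned Htr3a to 0.032 and Htr4 to 0.15 in experiment 1, and the striatal score turned them to 0.060 and 0.13. In experiment 2 the striatal score turned Htr5a to -0.025, the share of reads outside genes turned Htr3a to -0.13 and Htr1a to 0.41, and leaving out the 3 libraries turned Htr3a to -0.13. With a prior count of 0.5 the cortical score difference of experiment 2 was 0.038. The cause of these turns was not tested.

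Same-numbered rats had correlations from -0.13 to 0.14 in experiment 1 and -0.76 to 0.84 in experiment 2. The labels state no pairing by replicate number, and so few pairs cannot exclude one. Of the control rats, 1 of 5 and 0 of 6 correlated best with their own number. With the replicate number as a block, Htr3a in experiment 2 was -0.020, and the genes at an unadjusted P under 0.05 numbered 476 in place of 483 in experiment 1 and 414 in place of 115 in experiment 2. At an FDR under 0.05, 0 genes were called with the block, and 0 by DESeq2, whose lowest FDR was 0.0923 and 0.806. Of the 9 receptors with reads, Htr1a, Htr1d and Htr4 had low counts and wide intervals, and what part depth has in these was not tested.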

Other observations

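Htr2b, which encodes the Gq-coupled receptor of heart and gut, had reads in 5 of the 6 EtOH gavage rats and 1 of the 6 water gavage rats of experiment 2, with at most 5 and 1 reads in a library. Its fitted value under the wide filter had an unadjusted P of 0.00911 and an FDR of 0.73. At counts this low no fold is given, and the gene was singled out after its values were seen.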
